A study of Mus musculus with 5 samples.

Results

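The Gata2 locus was taken as the 120 kb of mouse chromosome 6 from the distal enhancer upstream of Gata2 to the region past its 3′ end (chr6:88100000-88220000, GRCm38). Its bounds are positions, and no methylation value sets which CpGs belong to it. It holds 1849 CpGs, each counted once with its 2 strands summed, in 120 windows of 1 kb, and 110 of these windows had at least 10 methylation calls in every library, out of 1643430 such windows in the genome. The methylation level is the percentage of calls at a CpG, window or element that were methylated. Whole-genome bisulfite sequencing had been done on 5 libraries of leukemic blasts sorted from mouse bone marrow, all on a C57BL/6 background. All 5 carried Cebpa-/p30, that is, 1 Cebpa allele deleted and the other making only the shorter p30 form of the transcription factor CEBPA. The control group was Cebpa-/p30 Tet2+/+ (replicates 23 and 24, n = 2), and the other group was Cebpa-/p30 Tet2-/- (replicates 5, 7 and 8, n = 3), which also lacked the DNA demethylase gene Tet2. Mx1-Cre, an interferon-inducible Cre that acts in blood cells and in other interferon-responsive cells, had deleted the floxed Cebpa allele in both groups. In the Tet2-/- group it had also deleted floxed Tet2, which the controls did not carry. The deletions took place in donor marrow carried by irradiated recipients. The cells had been sorted as donor-derived and negative for markers of T cells, B cells and red cell precursors. The labels give no age, sex or batch, and each library was counted as 1 sample.

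GATA2 is a zinc-finger transcription factor that binds GATA sequences and is needed to form and keep hematopoietic stem and progenitor cells. Its gene has 2 promoters: the upstream start makes variant V2, used in blood-forming cells, and the downstream start makes variant V1, used more widely, and both transcripts encode the same protein. Known enhancers are named by their distance from the upstream start: the distal enhancer at about -77 kb acts in myeloid progenitors, the -3.9, -2.8 and -1.8 kb elements lie just upstream, and the +9.5 kb element lies in an intron and is needed for stem cells to emerge. TET2 oxidises methylated cytosine at CpGs, which leads to its loss, so the question asked of this locus was whether the promoters or enhancers carried more methylation without Tet2. Bisulfite sequencing counts 5-methylcytosine and 5-hydroxymethylcytosine together.

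Depth was 63111735 to 110752967 calls per library on the autosomes and chromosome X, or 2.96 to 5.19 calls per CpG. Over all CpGs the level was 67.3% and 62.3% in Tet2+/+ and 70.9%, 74.8% and 68.4% in Tet2-/-. In the Gata2 locus the libraries had 3.37 to 6.70 calls per CpG, 107 to 127% of their autosomal mean, and 91.8 to 98.5% of the CpGs had a call. The segment of Tet2 between the study's genotyping primers (chr3:133466371-133468428, 39 CpGs) had 135 and 169 calls in Tet2+/+ against 6, 4 and 2 in Tet2-/-, which checks the labels (97.8 and 129.5% against 3.24, 2.21 and 1.92% of the flanking depth, exact permutation p = 0.1, the smallest that 10 splits of 5 libraries allow). The promoters of 8 myeloid markers had median levels of 23.9 and 15.3% in Tet2+/+ and 26.2, 29.3 and 22.8% in Tet2-/-, and those of 6 lymphoid markers 67.9 and 58.1% against 71.5, 81.0 and 69.9%. Those of 3 erythroid markers had medians of 14.05 and 12.7% in Tet2+/+ and 25, 26.8 and 30.9% in Tet2-/-, and those of 4 mast cell and basophil markers 44.7 and 45.0% against 47.7, 57.1 and 62.3%. Whether a different mix of cells had a part in the values of Gata2 was not tested.

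Gata2 sat in a locus of sharp contrasts that the groups shared. Averaged over all 1849 CpGs, the level was 55.7 and 56.2% in Tet2+/+ and 57.3, 58.1 and 56.8% in Tet2-/-. All 3 Tet2-/- libraries lay above both controls, by 1.43 points in the mean (exact permutation p = 0.2, adjusted p = 0.85 over 17 elements). The spread within the locus was far wider than this: 20 of the 110 windows had a level below 30% when the 5 libraries were pooled, and they formed 12 low stretches of 1 to 3 kb in otherwise methylated DNA. CpG-rich sequence made up 3 of these stretches, which had an observed-to-expected CpG ratio of 0.648 to 0.680: the V2 start, the V1 start and the kilobase 4 kb upstream of V2. The other 9, the distal enhancer and the +9.5 kb element among them, had ratios of 0.127 to 0.372, so they were low in methylation without being CpG-rich. For 10 of the 12 the ranges of the 2 groups overlapped. In the other 2, at -57 kb and around the +9.5 kb element, every Tet2-/- library was above both controls. Counted by window, 4 of the 20 showed that order, beside 26.4% of the low windows of the genome, and 0 showed the opposite order, beside 4.52%. None of the 20 passed the genome-wide test described further on, beside 1.61% of low windows (edgeR quasi-likelihood, with 0 also at an unadjusted p below 0.05, beside 14.9% of low windows).

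**Figure D1:**
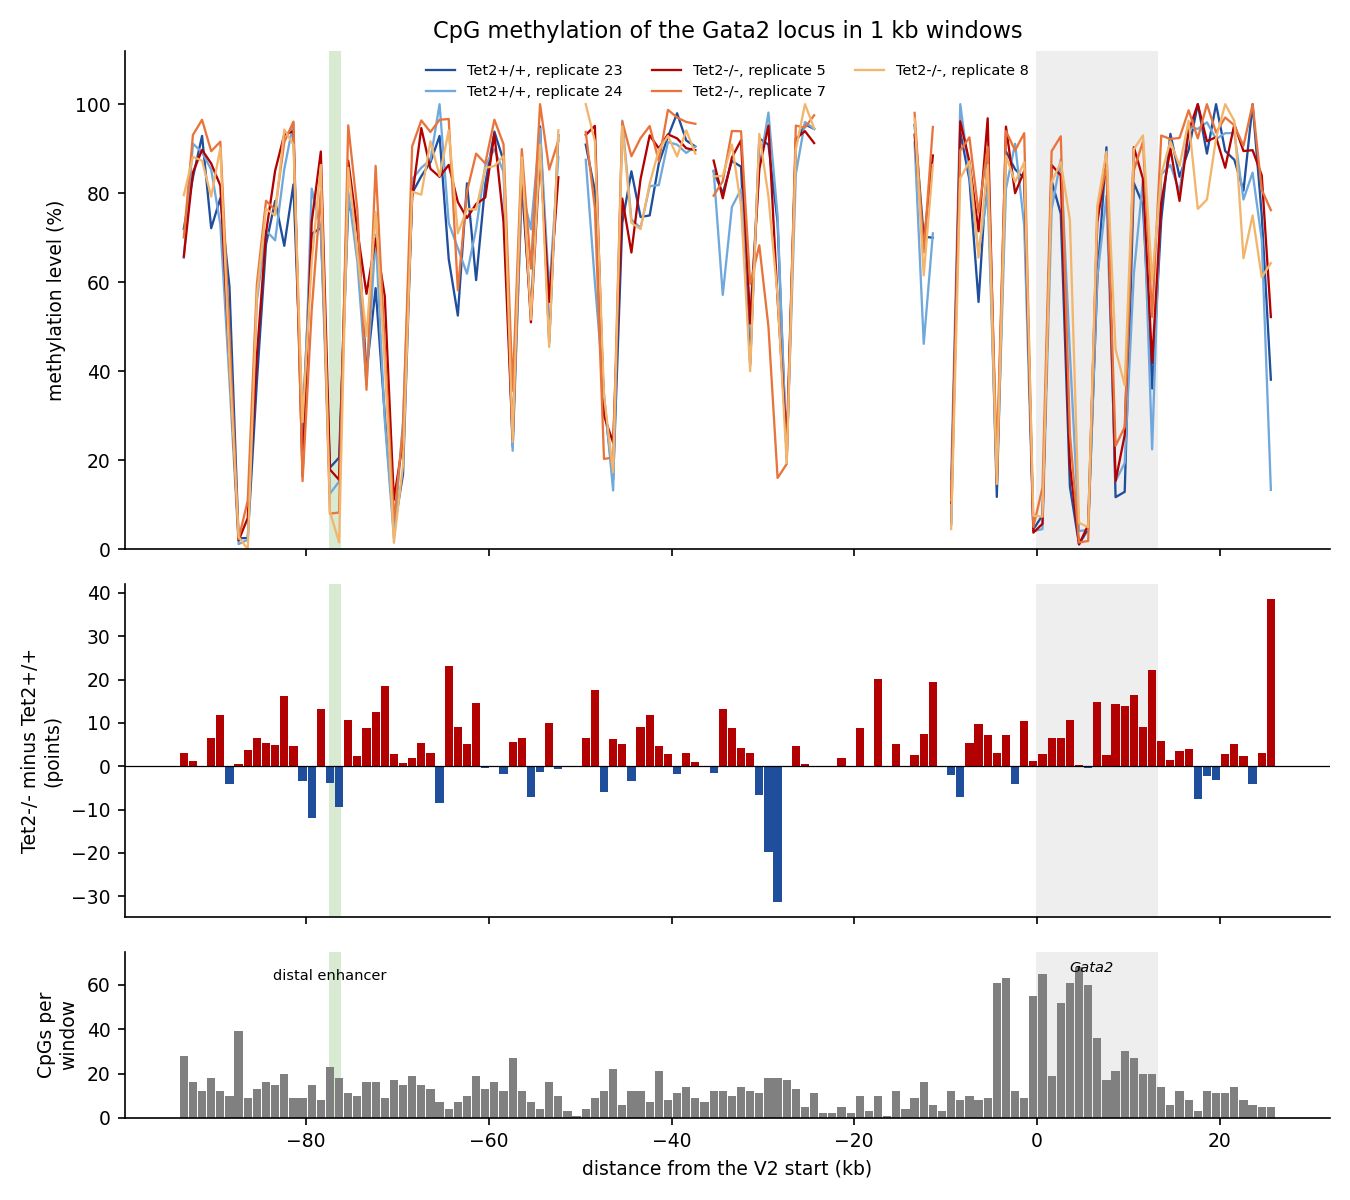
Methylation level (top, %, 1 line per library), difference of group means (middle, points, red where Tet2-/- is higher) and CpG number (bottom) of each 1 kb window against distance from the V2 start in kb. Green marks the distal enhancer and grey the gene; windows under 10 calls in any library are left blank in the upper panels. The low stretches recur in all 5 libraries, and the deepest fall in Tet2-/- is the pair of bars near -29 kb.

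The distal enhancer was almost free of methylation in both groups, and as a whole it showed no gain in Tet2-/-. Its 25 CpGs (chr6:88116514-88117583, between genes, centred 76.8 kb upstream of the V2 start) had levels of 5.41% and 4.72% in Tet2+/+. In Tet2-/- replicate 5 had 7.14%, replicate 7 had 0 of 160 methylated calls, which allows a level of up to 1.88%, and replicate 8 had 0.8475%. The difference of means was -2.40 points (5.07 ± 0.481 against 2.66 ± 3.902, SD, n = 2 and 3, exact permutation p = 0.4). It was -4.641 points without Tet2-/- replicate 5, -1.07 without replicate 7 and -1.493 without replicate 8. Of the 3 Tet2-/- libraries, 2 lay below both controls and 1 lay above. The stretch between guide A and guide 6, the outermost guides designed to cut the enhancer that matched the reference (chr6:88116764-88117333, 18 CpGs), ranged from 0 to 7.78%. Its difference of means was 1.005 points, or -1.587 points without Tet2-/- replicate 5. The highest value was again that of replicate 5, whose 95% Wilson interval was 3.82 to 15.2%. Intervals and limits of this kind cover counting error only. The 250 bases around the amplicon that the study used to measure CEBPA and TET2 binding at the enhancer are printed next (chr6:88117088-88117337, + strand, GRCm38.p6). They are shown because none of their 9 CpGs, in capitals, had a methylated call in any library.

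distal enhancer core: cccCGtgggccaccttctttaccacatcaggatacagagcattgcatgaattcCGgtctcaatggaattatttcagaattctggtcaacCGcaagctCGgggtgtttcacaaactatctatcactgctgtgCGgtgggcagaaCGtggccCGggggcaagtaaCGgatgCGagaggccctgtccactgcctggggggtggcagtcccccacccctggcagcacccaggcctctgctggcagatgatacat

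The word core in its label means only the stretch around the amplicon, and not a function that was measured here. There were 25 to 41 calls per library in this sequence, so a level of up to 7.32 to 12% per library could have gone unseen. The 7 CpGs of the amplicon itself (chr6:88117164-88117261) had 17 to 34 calls per library. In the fixed 1 kb windows, which take in methylated CpGs beside the enhancer, the mean of Tet2-/- was again the lower and the groups overlapped. The window that starts at chr6:88117001 had 20.6 and 15.2% in Tet2+/+ against 15.6, 8.25 and 1.54% in Tet2-/-, a difference of -9.43 points (edgeR quasi-likelihood unadjusted p = 0.0932, adjusted p = 0.471). That difference was -13 points without Tet2-/- replicate 5 and -5.967 without replicate 8, the widest moves on leaving out 1 library. Among the 70071 low windows of the genome, 2.98% had a difference further below 0 than that of all 5 libraries. The other enhancer window, starting at chr6:88116001, differed by -3.98 points (adjusted p = 0.7715), and 8.63% lay further below. On leaving out 1 library its difference lay between -7.219 and -1.059 points. The enhancer held 1 GATAA sequence, counted on either strand, and none of the CEBP sequence TTGCNNAA. Of stretches of the same length on chromosome 6, 85.4% and 41.6% held at least 1 of each. Only these exact sequences were searched, so CEBP sites of other spelling would be missed. The study reports CEBPA and TET2 binding at this enhancer in Cebpa p30/p30 cells, and less TET2 binding after Cebpa knockdown. In the blasts it reports low enhancer methylation that did not change upon loss of Tet2.

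The 75 kb between the enhancer and the V2 promoter held the only window of the locus in which every Tet2-/- library was below both controls, beside 16 of its 65 tested windows in which every one was above (24.6%). In the genome 2.6% of windows had the first order and 28.7% the second. This stretch as a whole (895 CpGs) had 65.7 and 65.4% in Tet2+/+ and 68.2, 69.5 and 65.4% in Tet2-/-, and the groups overlapped (difference 2.19 points, exact permutation p = 0.3). The median difference of its windows was 4.26 points, beside 5.81 points over all windows tested. Among the higher ones, chr6:88176001-88177000 (10 CpGs) had 68.75 and 74.5% in Tet2+/+ and 89.4, 94.5 and 91.7% in Tet2-/- (20.2 points, edgeR quasi-likelihood unadjusted p = 0.00469, adjusted p = 0.139), and chr6:88182001-88183000 (6 CpGs) had 70 and 71.0% against 88.5, 94.9 and 86.4% (19.4 points, adjusted p = 0.243). About 28 kb upstream of V2 lies a low spot whose core window (chr6:88166001-88167000, 17 CpGs) averaged near 20% in all libraries, from 19.2 to 23.3%. With libraries pooled, its CpGs from position 88166017 to 88166508 had 0 to 5.56%, and those from 88166728 to 88166921 had 65.5 to 100%. The window on its upstream side (chr6:88165001-88166000, 18 CpGs) had 73.5 and 75.0% in Tet2+/+ and 56.2, 16.02 and 56.9% in Tet2-/- replicates 5, 7 and 8, and the next one (chr6:88164001-88165000, 18 CpGs) had 90.9 and 98.1% against 95.2, 50 and 79.25%. The first of these windows did not overlap between the groups, and in both of them replicate 7 was the lowest library. In the farther window replicate 7 also had the most calls, 168 beside 53 in the shallowest library. The differences were -31.2 and -19.7 points, with the lowest adjusted p of the locus at 0.113 (edgeR quasi-likelihood) for the nearer window. Without replicate 7 they were -17.7 and -7.29 points (adjusted p = 0.440 and 0.763). Without replicate 5 they were -37.8 and -29.9 points, and the farther window passed (adjusted p = 0.0665 and 0.0311). With windows shifted by 500 bp, chr6:88163501-88164500 passed (-22.3 points, adjusted p = 0.0374). The nearer window was the only one in the locus in which a single library stood at least 30 points below each of the other 4, a limit set after the values were seen, and in the genome 0.0291% of windows had that pattern for replicate 7 and 0.0353 to 1.25% for each of the other libraries.

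**Figure D2:**
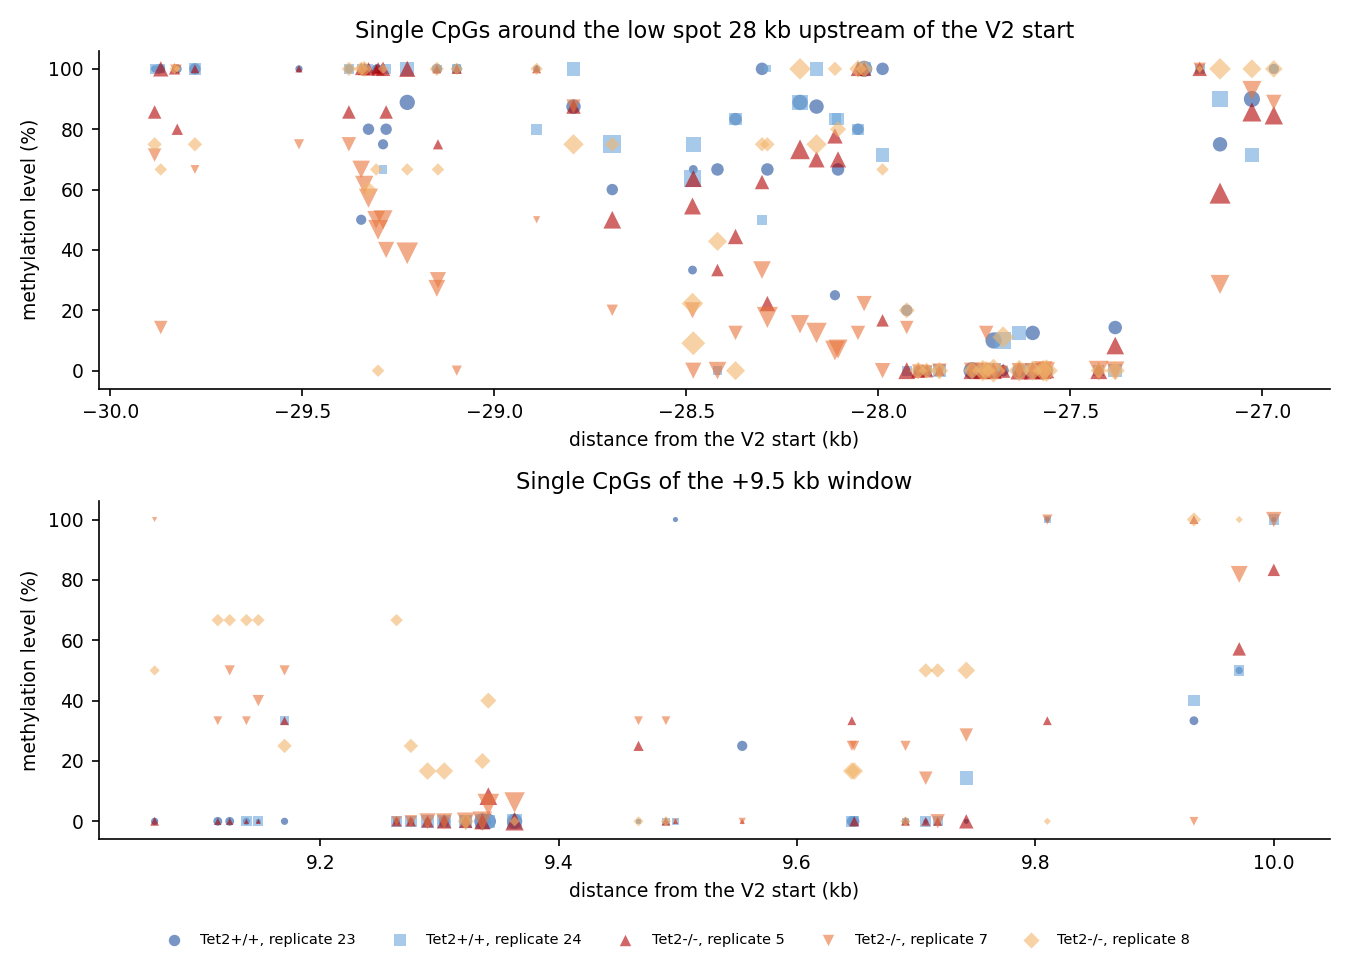
Methylation level (%) of single CpGs against distance from the V2 start (kb), around the low spot at -28 kb (upper) and in the +9.5 kb window (lower), with 1 symbol per library sized by its number of calls. Between -29.4 and -28.0 kb the replicate 7 symbols of Tet2-/- lie mostly below the others, and in the +9.5 kb window, up to its last 4 CpGs, those of replicates 7 and 8 most often leave the baseline. Summed over the last 4, every library is mostly methylated.

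The elements just upstream of V2 did not separate the groups. The -3.9 kb element lies where CpG-rich unmethylated sequence meets CpG-rich methylated sequence, and this junction falls within Gm38708, a long noncoding RNA annotated on the opposite strand (chr6:88188397-88190681). In bins of 500 bp counted from the V2 start, the bin from 4.5 to 4 kb upstream (41 CpGs) had 0.730 and 1.85% in Tet2+/+ and 0.922, 0.810 and 3.88% in Tet2-/-. The bin centred at -3.25 kb (38 CpGs), closer to the gene, had 92.9 and 91.1% against 97.2, 96.0 and 91.4%. The 1 kb window centred at -3.9 kb straddled the junction and had 28.6 to 32.9% in all 5 libraries, with a difference of -0.758 points. The -2.8 kb window (41 CpGs) was at 89.4 to 96.8% and the -1.8 kb window (6 CpGs, 11 calls in the shallowest library) at 70.4 to 82.9%, with differences of -2.52 and 1.02 points (exact permutation p = 0.6, 0.5 and 1.0 for the 3 windows).

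**Figure D3:**
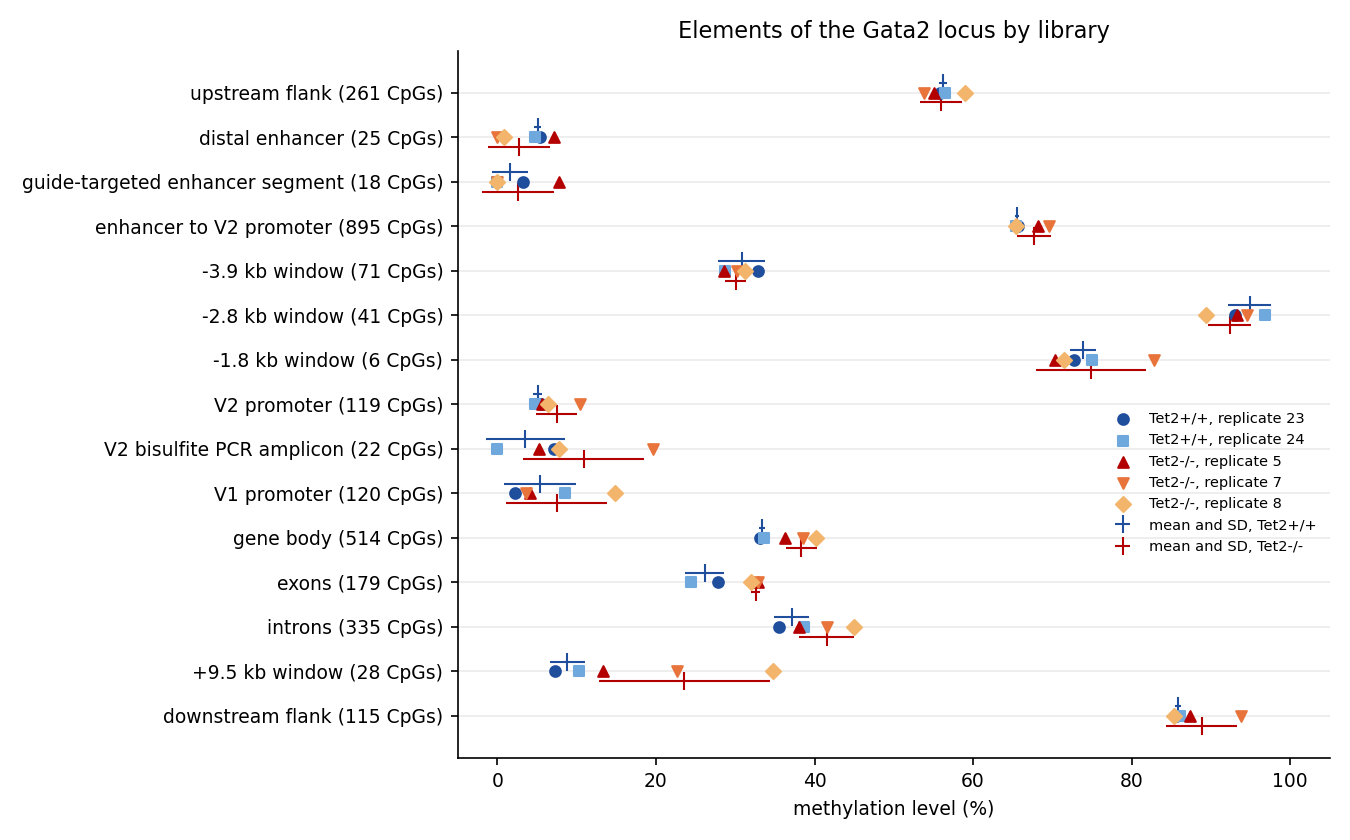
Methylation level (%) of each element of the locus, with 1 symbol per library and, beside them, the mean and SD of each group (n = 2 and 3). The groups stand apart without overlap at the V2 promoter, gene body, exons and +9.5 kb window, and by the widest margin of means at the +9.5 kb window.

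The V2 promoter was unmethylated at its start in both groups, and the small excess in Tet2-/- came mainly from replicate 7, at the edges. Within 1000 bp on each side of the start (chr6:88192891-88194891, 119 CpGs) the level was 5.51 and 4.71% in Tet2+/+ and 5.59, 10.4 and 6.398% in Tet2-/- replicates 5, 7 and 8. All 3 were above both controls, replicate 5 by less than 0.1 points, and the means differed by 2.37 points (5.11 ± 0.571 against 7.48 ± 2.60, exact permutation p = 0.4), or by 0.882 points without replicate 7. The 250 bases before the start are printed because their 23 CpGs carried 1 methylated call, in Tet2+/+ replicate 24, from 62 to 146 calls per library (chr6:88193641-88193890, + strand, RefSeq, GRCm38.p6). The CpGs are in capitals, except the last, whose C is the final base printed and whose G lies past it.

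V2 promoter: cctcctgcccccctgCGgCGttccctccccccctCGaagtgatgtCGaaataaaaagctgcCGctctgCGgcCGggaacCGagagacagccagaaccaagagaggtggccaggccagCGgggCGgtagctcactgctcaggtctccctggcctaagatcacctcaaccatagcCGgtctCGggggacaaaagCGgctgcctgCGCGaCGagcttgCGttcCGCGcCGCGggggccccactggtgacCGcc

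Within 500 bp of the start the level was 1.92 to 3.93% in the 5 libraries, and the difference shrank to 0.650 points. The highest there was Tet2-/- replicate 8, beside 2.29 and 1.92% in Tet2+/+ and 2.09% in Tet2-/- replicate 7. The study ran its own bisulfite sequencing on leukemia lines driven by an MLL fusion protein, with and without Cebpa, and not on these blasts. The stretch amplified by that PCR lies further into the first intron (chr6:88194466-88194889, 22 CpGs, centred 0.786 kb past the start). There replicates 23 and 24 of Tet2+/+ had 7.07 and 0%, the latter from 95 calls, which allows up to 3.16%. In Tet2-/- replicates 5 and 8 had 5.26 and 7.77%, close to the higher control, and replicate 7 had 19.6% (45 of 230 calls, 95% Wilson interval 14.96 to 25.2%). The groups overlapped, and the difference of 7.33 points had an exact permutation p of 0.5. It was 2.98 points without Tet2-/- replicate 7 and 3.794 points without Tet2+/+ replicate 24. Downstream of the amplicon the level climbed to 69.8 to 88.0% in the bin at 1.25 kb in every library. The run of 1 kb windows below 10% that contained the V2 start was 2 kb long in all libraries but Tet2-/- replicate 7, where it was 1 kb (exact permutation p = 1.0).

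At the V1 promoter the libraries differed within each group more than the groups did. Within 1000 bp of the start (chr6:88197334-88199334, 120 CpGs) the level was 2.18 and 8.53% in Tet2+/+ and 4.05, 3.54 and 14.8% in Tet2-/-. The means differed by 2.11 points (5.36 ± 4.49 against 7.47 ± 6.37, exact permutation p = 0.8). The difference turned negative without Tet2-/- replicate 8 (-1.56 points) or without Tet2+/+ replicate 23 (-1.06 points). Within 500 bp the 5 libraries were at 1.63 to 6.64%. The 250 bases before the start hold 9 CpGs, in capitals, and are shown for comparison with the V2 sequence, which holds more CpGs (chr6:88198084-88198333, + strand, GRCm38.p6). The V1 start used here is that of GENCODE, and RefSeq places it 330 bp further downstream (chr6, 88198664), so by RefSeq these bases lie farther from the start.

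V1 promoter: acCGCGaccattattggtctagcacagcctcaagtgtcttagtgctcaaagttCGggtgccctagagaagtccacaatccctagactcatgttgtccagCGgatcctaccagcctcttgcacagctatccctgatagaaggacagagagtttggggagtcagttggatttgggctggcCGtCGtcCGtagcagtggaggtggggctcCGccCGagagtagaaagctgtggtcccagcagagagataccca

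These CpGs had 5.13 and 12.2% in Tet2+/+ and 6.15, 6.90 and 18.0% in Tet2-/-. The edge upstream of them varied more. The bin centred at 3.75 kb, just before the V1 start, had 6 and 30.2% in Tet2+/+ and 20, 10.9 and 75% in Tet2-/-, and the bin at 3.25 kb had 26.85 and 75.9% against 32.45, 47.0 and 82.1%. Replicate 24 of the controls and replicate 8 of Tet2-/- therefore had the edge of the unmethylated stretch closer to the V1 start than the other 3 libraries. In the bins centred from 4.75 to 5.75 kb, which follow the start and reach the exon shared by both transcripts, no library was above 3.165%.

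**Figure D4:**
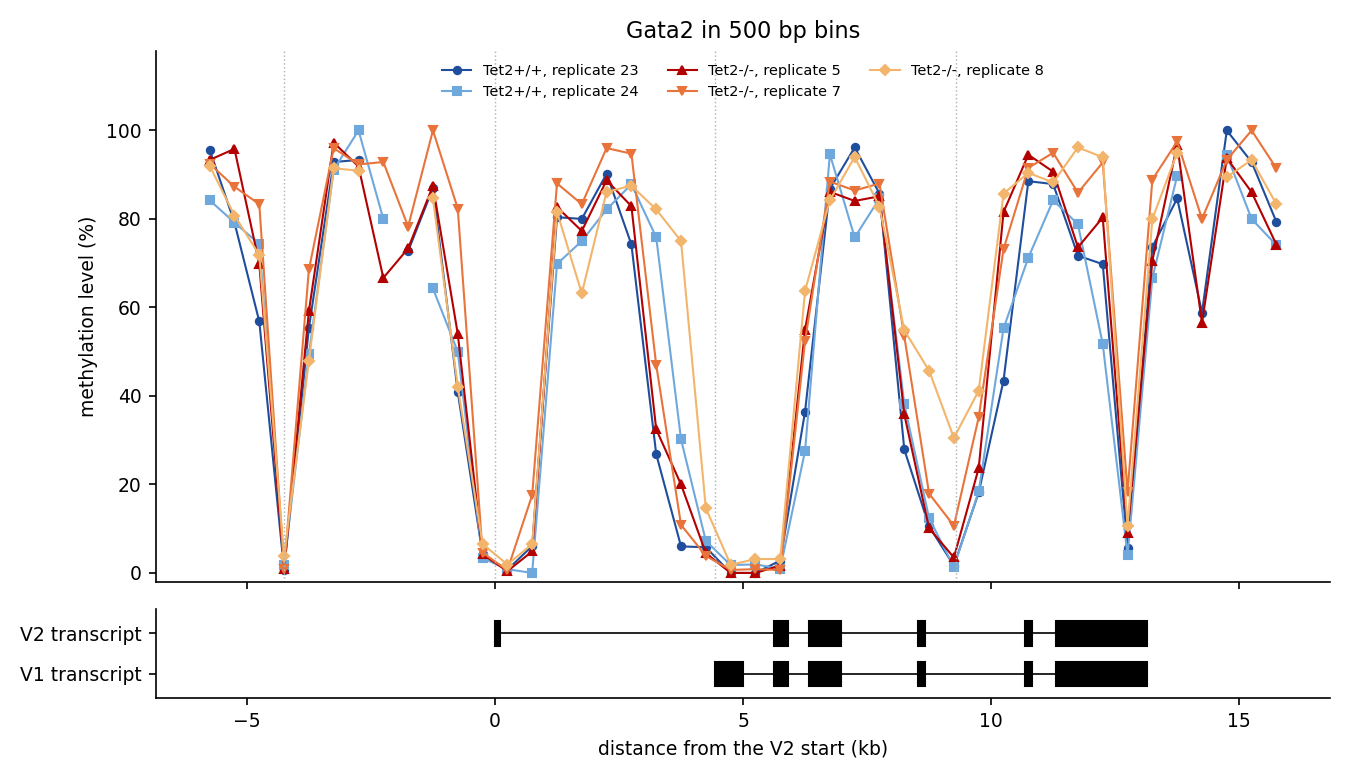
Methylation level (%) in 500 bp bins against distance from the V2 start (kb), with 1 line and symbol per library, above the exons (boxes) of the V2 and V1 transcripts. Dotted lines mark named positions, among them the V2 start, the V1 start and the +9.5 kb element; bins under 10 calls in a library are left out. The lines come together at the V2 start and just past the V1 start. They separate more widely just before the V1 start, where Tet2+/+ replicate 24 and Tet2-/- replicate 8 are highest. At the +9.5 kb element they separate again, and Tet2-/- replicate 8 is highest.

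The +9.5 kb element showed the largest difference of any element: its level was 8.79 ± 2.20% in Tet2+/+ and 23.6 ± 10.8% in Tet2-/-. This element, an enhancer of Gata2 itself in stem and progenitor cells, lies in the fourth intron of the V2 transcript. Its 1 kb window (chr6:88202892-88203891, 28 CpGs) had 7.23% (6 of 83 calls) and 10.3% (12 of 116) in Tet2+/+, and 13.3% (17 of 128), 22.65% (41 of 181) and 34.8% (32 of 92) in Tet2-/- replicates 5, 7 and 8. The groups did not overlap, and the Tet2-/- libraries were far from each other. The difference of 14.8 points had an exact permutation p of 0.2 (adjusted p = 0.85), and it was 9.18 points without replicate 8. The last 4 CpGs of the window, set apart after the values were seen, were mostly methylated in every library when summed, at 57.1 and 66.7% in Tet2+/+ and 68.4, 81.5 and 83.3% in Tet2-/-. The other 24 CpGs had 2.63 and 1.98% against 3.67, 12.3 and 31.4%, a difference of 13.5 points (exact permutation p = 0.2). The search for the composite by which this enhancer is known, an E-box and a GATA sequence a fixed distance apart, found a single match on either strand in the whole gene, at chr6:88203185-88203204, 9.29 kb past the V2 start. Of the 1 kb stretches of chromosome 6, 0.0287% held such a match. It is printed with 60 bases on each side, the composite and the CpGs in capitals, because it carried no methylated call in Tet2+/+.

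+9.5 kb element: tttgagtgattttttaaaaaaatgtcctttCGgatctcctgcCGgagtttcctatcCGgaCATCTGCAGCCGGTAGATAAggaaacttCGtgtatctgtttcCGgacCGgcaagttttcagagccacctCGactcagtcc

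In these 140 bases (chr6:88203125-88203264, + strand, GRCm38.p6) the 8 CpGs had no methylated call in Tet2+/+, out of 45 and 53 calls, which allows up to 6.67 and 5.66%. Tet2-/- replicates 5, 7 and 8 had 1 of 64, 2 of 91 and 8 of 36 calls methylated, or 1.56, 2.20 and 22.2%. The methylated calls of the wider window in replicate 7 thus came mostly from outside these bases, and only in replicate 8 did the core itself carry more than 3%. The 2 fixed windows that cover the element and its upstream flank (chr6:88202001-88203000 and chr6:88203001-88204000) had differences of 14.3 and 13.9 points (edgeR quasi-likelihood unadjusted p = 0.0714 and 0.0699, adjusted p = 0.429 and 0.425). Among the low windows of the genome, 12.7 and 13.5% had larger differences. Without replicate 8 the 2 differences were 5.77 and 10.4 points.

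Past the V1 promoter the rest of the gene was higher in Tet2-/- in most places. Of the 8 windows centred from 1 kb past the V1 start to the 3′ end, 6 had every Tet2-/- library above both controls, against 28.7% of all windows tested in the genome. Most of these 8 have 20 to 49 CpGs, a class in which 37.9% of windows of the genome showed that order. From the V2 promoter to 1 kb past the V1 start it was 0 of 6 windows, and over the gene 6 of 14 (42.9%). Neighbouring windows are not independent, and the bounds of this stretch were not set beforehand. The window at chr6:88200001-88201000, which holds an exon and its flanks, had 60.5 and 61.0% in Tet2+/+ and 73.5, 76.4 and 77.1% in Tet2-/-. The window at chr6:88204001-88205000 had 82.3 and 61.9% against 90.3, 85.1 and 89.9%. Its difference of 16.4 points was 6.17 points without Tet2+/+ replicate 24 and 26.5 points without Tet2+/+ replicate 23. The window at chr6:88206001-88207000, within the last exon, had 36.1 and 22.45% against 41.9, 52.2 and 60.4%, a difference of 22.2 points (edgeR quasi-likelihood unadjusted p = 0.0383, adjusted p = 0.340). These windows are named with their values in view, and none passed the genome-wide threshold. Within the last exon the bin at 12.75 kb was a local low point, at 5.71 and 4% in Tet2+/+ and 9.09, 18.3 and 10.5% in Tet2-/-. Over the whole gene (chr6:88193891-88207032, 514 CpGs) the level was 33.1 and 33.7% in Tet2+/+ and 36.3, 38.5 and 40.2% in Tet2-/-, without overlap and 4.94 points apart (exact permutation p = 0.2). Its exons (179 CpGs) had 27.9 and 24.4% against 32.85, 32.9 and 31.97%, the only element to reach the smallest exact permutation p of 0.1 (adjusted p = 0.85). Its introns (335 CpGs) overlapped between the groups, at 35.55 and 38.7% against 38.1, 41.6 and 45.0%. The flank beyond the gene (115 CpGs) was as a whole methylated in all libraries, at 85.3 to 93.8%, and the flank upstream of the enhancer (261 CpGs) was at 53.85 to 58.96%, with overlap of the groups in each. The last window of the flank beyond the gene (chr6:88219001-88220000, 5 CpGs, 14 to 23 calls per library) was lower. It had 38.1 and 13.3% in Tet2+/+ against 52.2, 76.2 and 64.3% in Tet2-/-. This difference of 38.5 points was the largest of any tested window of the locus. The window was named with its values in view and did not pass the genome-wide threshold.

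Tested against the spread between libraries across the genome, no 1 kb window of the locus passed. Of 110 windows, 0 had an adjusted p below 0.05 in edgeR's quasi-likelihood test, whereas 1.23% of the 1643430 windows of the genome did (1.22% higher in Tet2-/-). Unadjusted p was below 0.05 for 9 windows of the locus, 7 higher and 2 lower in Tet2-/-, and for 13.3% of all windows. edgeR's likelihood ratio test and limma, with and without centring, also called 0 windows in the locus. With windows shifted by 500 bp 1 was called, and without Tet2-/- replicate 5 also 1, both lower in Tet2-/- and both in the stretch near -29 kb described above. In 27 windows every Tet2-/- library was above both controls (24.5%, against 28.7% in the genome) and in 1 every Tet2-/- library was below (0.909%, against 2.6%). The median difference over the 110 windows was 3.62 points, beside 5.81 points over all windows tested. Sorted by CpG number, the 13 windows of the locus with 20 to 49 CpGs had a median difference of 9.03 points, beside 5.19 points for that class in the genome, and in 10 of them every Tet2-/- library was above both controls (37.9% of that class in the genome). That order was found in 17 of the 89 windows with under 20 CpGs, 19.1% beside 28.1% in the genome, and in 0 of the 8 with 50 or more, beside 24.9%. Those 13 windows include the +9.5 kb element and the 3′ part of the gene, and neighbouring windows are not independent. The 89 CpG-poor windows, under 20 CpGs, had a median of 3.06 points beside 5.93 points, and the 8 with 50 or more had 2.999 points beside 0.542 points.

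**Figure D5:**
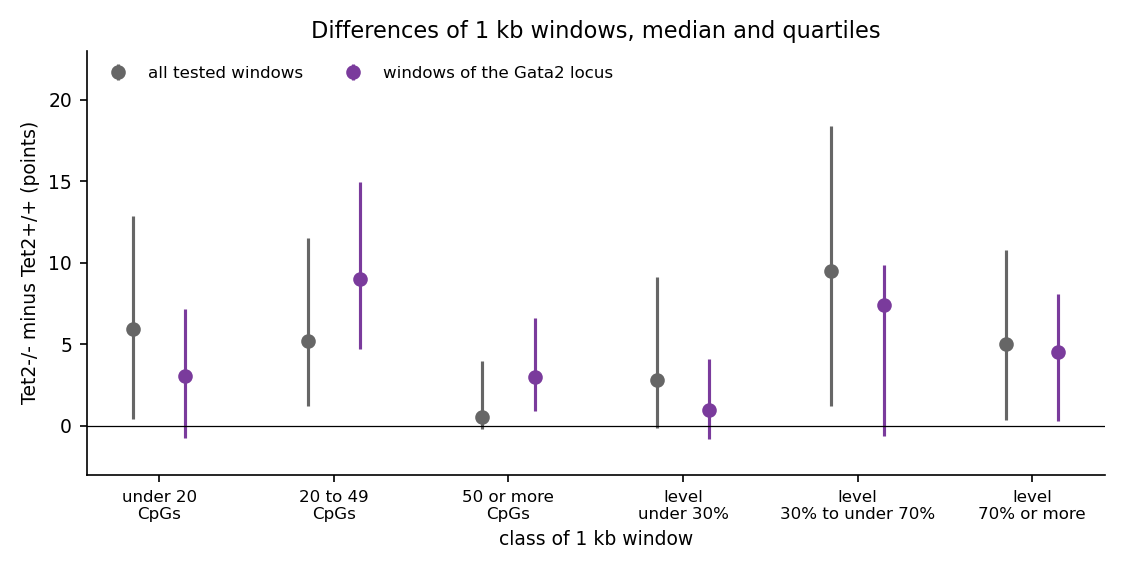
Median difference of group means (points, Tet2-/- minus Tet2+/+) with its quartiles, for 1 kb windows grouped by CpG number and by pooled level, in all tested windows (grey) and in the Gata2 locus (purple). In the locus the class of 20 to 49 CpGs has a median of 9.03 points beside 5.19 points in the genome, and the quartiles overlap in every class.

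The 2 promoters of Gata2 and its gene body did not pass when tested with those of all other genes. In the promoter fit (19456 promoters, of which 1.03% passed) the V2 promoter had an unadjusted p of 0.215 and an adjusted p of 0.525, and the V1 promoter had an adjusted p of 0.836 (edgeR quasi-likelihood). The difference at V2 was exceeded by 48.8% of all promoters and that at V1 by 50.7%. The 3941 promoters that likewise had 100 or more CpGs and a pooled level under 10% had a median difference of 0.339 points (quartiles -0.191 and 1.28), and 13.6% of them exceeded V2 and 15.4% V1. The order of libraries at V2, with all Tet2-/- above both controls, was shared by 32.8% of all promoters and by 21.4% of the CpG-dense low ones. In the gene body fit (20715 bodies, 15.4% past the threshold) Gata2 had an adjusted p of 0.361, and 50.1% of bodies had a larger difference. The order of its libraries was that of 46% of all bodies, and the opposite order that of 1.46%. Among 14825 other promoters with at least 100 calls in every library, those with levels nearest to the V2 promoter were Rtn4ip1, Zfp251, Wdr81, Dguok and Hist1h4f, with root mean square differences of 0.502 to 0.664 points over the 5 libraries. By this measure 27 promoters lay within 1 point of V2 and 453 within 2 points, so these 5 do not stand out.

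Other genes of the GATA network were read from lists of regulators, partners and targets. The GATA family members Gata1, Gata3, Gata4, Gata5 and Gata6 had 0 of 5 promoters past the threshold, beside 1.03% of all promoters. At an unadjusted p below 0.05 (edgeR quasi-likelihood) there were 2, beside 18% of all promoters. The promoter of Gata3, a regulator of T-cell and other lineages, had 5.40 and 3.79% in Tet2+/+ and 7.13, 11.1 and 25.3% in Tet2-/- (adjusted p = 0.181, edgeR quasi-likelihood). Gata4, a regulator of heart and endoderm, had the largest promoter difference of the family, 17.55 points, with 33.0 and 12.95% against 41.7, 37.7 and 42.3% (adjusted p = 0.225), and Gata6 was the only one below 0, at -1.99 points. The family's median promoter difference was 7.47 points beside 2.22 points for all promoters. In the gene bodies 1 of 5 passed, as did 15.4% of all bodies, and 4 had an unadjusted p below 0.05, beside 29.1% of all bodies. Gata3 rose from 32.4 ± 3.82 to 44.3 ± 1.91% (adjusted p = 0.0217).

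The partners that bind DNA with GATA2 or regulate it (Tal1, Lyl1, Lmo2, Ldb1, Runx1, Erg, Fli1, Zfpm1, Spi1 and Cebpa) had 0 of 10 promoters past the threshold, beside 1.03% of all promoters. Of the 10, 2 had an unadjusted p below 0.05 (edgeR quasi-likelihood), beside 18% of all promoters. Their median difference was 0.832 points, beside 2.22 points for all promoters. The lowest adjusted p was 0.143, at Fli1, an ETS factor, with 1.42 and 0.635% against 2.91, 6.69 and 2.47%. Lmo2, an adaptor of the complex, had the largest difference, 7.30 points (adjusted p = 0.585), and Cebpa, whose promoter was at 0.623 to 1.07% in the 5 libraries, the lowest, -0.327 points. Among their 10 bodies only Spi1, the ETS factor of myeloid cells, passed, a share below that of all bodies, and it rose from 44.8 ± 6.64 to 55.97 ± 3.20% (adjusted p = 0.0369). Of 5 genes that GATA2 is known to activate in mast cells and progenitors (Kit, Hdc, Cpa3, Ms4a2 and Il1rl1) 0 promoters passed, beside 1.03% of all promoters, with a median of 8.99 points beside 2.22 points. Ms4a2, the beta chain of the IgE receptor, had the largest promoter difference, 11.5 points from 7 CpGs (adjusted p = 0.448), and Kit, the stem cell factor receptor, the smallest, 0.0894 points. Of the 5 bodies that of Ms4a2 passed, beside 15.4% of all bodies, and rose from 71.4 ± 4.51 to 88.3 ± 3.75% (adjusted p = 0.00875). None of the 3 bodies passed without Tet2+/+ replicate 24, when the lone control is assumed to vary like Tet2-/-: Gata3 then differed by 9.193 points, Spi1 by 6.434 and Ms4a2 by 13.76 (edgeR adjusted p = 0.514, 0.715 and 0.3725). None passed with limma (adjusted p = 0.121, 0.176 and 0.0633). Gata3 also missed the threshold without Tet2-/- replicate 5 or 8 (adjusted p = 0.0890 and 0.0729), and Spi1 without Tet2-/- replicate 5, 7 or 8 (adjusted p = 0.103, 0.0944 and 0.0568).

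The 7 protein-coding neighbours within 200 kb (Rab7, Rpn1, H1fx, Copg1, Hmces, Dnajb8 and Eefsec) had 0 promoters and 0 bodies past the threshold (edgeR quasi-likelihood, 0 and 2 at an unadjusted p below 0.05), beside 1.03% of all promoters and 15.4% of all bodies. Their median differences were 0.2435 points in promoters, beside 2.22 points over all promoters, and 2.76 points in bodies, beside 4.95 points over all bodies. The largest promoter difference was that of Dnajb8, a chaperone gene past the 3′ flank, with a promoter at 90.5 and 87.0% against 91.4, 95.6 and 90.7% (3.81 points, adjusted p = 0.466). The lowest was that of H1fx, a linker histone gene, at -0.582 points (adjusted p = 0.822). Among the bodies Dnajb8 had the largest difference, 7.23 points (adjusted p = 0.1325), and Hmces the only one below 0, -1.71 points (adjusted p = 0.803).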

How the data were processed

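Bisulfite libraries (Pico Methyl-Seq) of 5 sorted leukemia samples were read as deposited: Bismark CpG reports of methylated and unmethylated counts per cytosine, not normalized and not pooled. Per the study's methods and its processing notes, the authors used Trim Galore 0.4.3, FastQC 0.11.7, Bismark 0.19.1 with Bowtie2 and removal of duplicates on GRCm38. Every CpG of chromosome 6 lay on a CG of the reference used here. Strands were summed, and windows of 1000 bp, promoters (1000 bp on each side of the start, GENCODE M21) and gene bodies were formed. Levels of elements were compared with two-sided exact permutation tests of the 5 library labels and Benjamini-Hochberg adjustment over 17 elements. Counts were tested across the genome in edgeR 4.0.16 (quasi-likelihood, 1 coefficient per library, at least 10 calls in every library for windows and 20 for promoters and bodies), after trials on simulated data. Alternatives used limma 3.58.1 on log2 ratios with 2 added to each count. Oligonucleotides of the study were placed by matching to the reference.

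The locus, elements and lists were chosen with earlier results of these data known. Named were all Gata2 elements, list members past an adjusted p of 0.05 or with the largest difference in each direction, windows past an adjusted p of 0.05, and the 5 promoters nearest to V2 by level; windows and genes named otherwise were chosen with values seen. The study's methods give 2 or 3 mice per group and do not say whether they shared a donor. The tests took the libraries as independent, which they may not be, and the p-values apply to these libraries only.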

Additional observations from a re-analysis of the deposited data

How the results depend on the processing

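No paired analysis was possible because the groups share no replicate number. Of 158 alternative values of the element levels (CpGs called in all 5 libraries, each strand alone, calls thinned to the shallowest library, promoters of 500 or 2000 bp on each side, leaving out each library and, added after the data were seen, leaving out 4 CpGs of the +9.5 kb window), 137 kept their direction, 12 reversed and 9 stayed at 0, all of the last at the amplicon in the distal enhancer, and the exact tests cannot pass 0.05 at this size under any of them. The upstream flank, -0.203 points, was 1.52 points on the top strand, and the -1.8 kb window, 1.02 points, was -10.89 points on the bottom strand. Leaving out 1 library moved the upstream flank between -1.694 and 0.861 points, the guide-targeted segment between -1.59 and 2.593 points, the -3.9 kb window between -2.82 and 1.31 points, the -1.8 kb window between -2.96 and 3.28 points and the V1 promoter between -1.56 and 5.29 points, the last also in the genome-wide fit. With no change of direction it moved the distal enhancer between -4.641 and -1.07 points, the -2.8 kb window between -4.416 and -0.614, the stretch from enhancer to V2 promoter between 1.279 and 3.34, the bisulfite amplicon between 2.98 and 10.87, the introns between 2.712 and 6.18 and the downstream flank between 0.470 and 4.73. On leaving out 1 library the V2 promoter lay between 0.882 and 3.31 points and the gene body between 4.004 and 5.96 points. By strand they were 0.9877 and 3.351 points on the top and 3.802 and 6.531 points on the bottom strand, and the V2 promoter was 0.650 points within 500 bp and 1.229 points within 2000 bp of its start. Their genome-wide fits gave no adjusted p below 0.05 under any alternative run. The count of windows of the genome past the threshold, 20219, was 38830 with edgeR's likelihood ratio test, 12478 with limma, 2200 with limma after subtracting each library's median, and 1117 to 17363 on leaving out 1 library, lowest without Tet2+/+ replicate 24. The count in the locus, 0, became 1 with windows shifted by 500 bp (chr6:88163501-88164500, -22.3 points, adjusted p = 0.0374) and 0 to 1 on leaving out 1 library, the 1 being chr6:88164001-88165000 without Tet2-/- replicate 5 (-29.9 points, adjusted p = 0.0311); both lie on the edge where replicate 7 was low. The cause of these changes was not tested. The low stretch around V2, shorter by 0.333 kb in the mean of Tet2-/-, did not differ without Tet2-/- replicate 7 or at a limit of 20%, and was shorter by 1.17 kb at a limit of 5%. Where a library was left out of Tet2+/+, the fits took the spread from Tet2-/-. Depth limits the short elements: at the distal enhancer the 95% Wilson interval of Tet2+/+ replicate 23 was 2.50 to 11.3%. It covers counting error in that library only and is not a limit of detection for a difference between the groups.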
